A study of Mus musculus with 10 samples.

Results

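The genes described here write, read or erase DNA methylation: Dnmt1, Dnmt3a, Dnmt3b, Dnmt3l, Uhrf1, Uhrf2, Tet1, Tet3 and Mbd2. They are 9 of the 19057 named genes on an Illumina mouse whole-genome array, and they were taken by name, with all 21 of their probes among 45281. Expression was measured on 10 arrays, each of 1 RNA sample, in cells derived from adult bone marrow mesenchymal stem cells (MSC) of C57BL/6J mice. MSC are stromal cells that can form fat, cartilage and bone. There were 2 arrays of undifferentiated MSC. There was 1 array each of differentiated adipocytes, chondrocytes and osteocytes, and 1 each of reprogrammed adipocytes, chondrocytes and osteocytes, which the sample titles also call colony-forming cells (aCFU-F, cCFU-F and oCFU-F). The last pair was osteocytes derived in vivo, untreated and treated. The labels do not name the reprogramming agent or the treatment, nor the age of the mice, and they do not say whether samples came from separate animals or cultures. The p-values below therefore measure only the spread between these samples, which may be technical. Lineages stand as the replicates of the differentiated and of the reprogrammed class, so this spread also holds differences between lineages.

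DNA methylation in mammals sits mainly on cytosines of CpG dinucleotides. Dnmt3a and Dnmt3b place new methyl groups, and the catalytically inactive Dnmt3l stimulates them in germ cells and early embryos. Dnmt1 copies the pattern onto the new strand at replication, and Uhrf1 brings it there by binding hemimethylated DNA. Uhrf2 is the relative of Uhrf1. Tet1 and Tet3 oxidise 5-methylcytosine as a first step of its removal, and Mbd2 binds methylated CpG and recruits histone deacetylases. Dnmt1 and Uhrf1 are known as genes of cycling cells, read out around S phase.

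The sequences at the starts of Uhrf1, Dnmt1 and Uhrf2 are shown because these genes hold the E2F-type letters TTCCCGC or TTGGCGC, a motif of cell-cycle promoters, and because Uhrf1 and Dnmt1 moved together across the arrays. RefSeq windows of 250 bases before to 50 after a start (GRCm38.p6) were taken for 8 of the 9 genes. Mbd2 was left out, so the 15 windows do not cover it. Of these windows 3 held either E2F-type motif on either strand, against 6.81% of all 32851 windows. The bases upstream of the first Uhrf1 start, chr17:56303087-56303336 on the plus strand, follow, with the E2F-type match at position -48 and CCAAT box letters in capitals; the last CC begins a CCAAT at position -2 that overlaps the start.
Uhrf1: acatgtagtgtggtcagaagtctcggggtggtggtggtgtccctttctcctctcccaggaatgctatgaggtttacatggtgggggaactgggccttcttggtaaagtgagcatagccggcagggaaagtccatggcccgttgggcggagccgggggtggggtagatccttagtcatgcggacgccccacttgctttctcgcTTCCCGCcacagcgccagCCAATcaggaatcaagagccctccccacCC
The matches of the other 2 genes are given as 30 bases each, with the E2F-type letters in capitals. For Dnmt1 they are chr9:20952574-20952603 on the minus strand, at position 35 after the start, and for Uhrf2 chr19:30030445-30030474 on the plus strand, at position -57.
Dnmt1: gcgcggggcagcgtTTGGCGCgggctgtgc
Uhrf2: cgagatccgggTTGGCGCcgtgacctccat
CCAAT, searched on both strands, occurred in both Uhrf1 windows, in 2 Dnmt1 windows and in the Tet3 window, against 37.4% of all windows. The Uhrf1 window printed above held 12 CpG, the second Uhrf1 window 33 and the Dnmt1 window with the match 33, against a median of 7 over all windows with quartiles of 3 and 20. A match is a description of letters and not a site shown to be bound.

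Between 14896 and 16737 probes were detected per array (detection p-value under 0.01 against negative control beads). The deposited intensities of the differentiated and reprogrammed osteocyte arrays had means of 324 and 413 and those of the other 8 arrays a mean of 538, so scale and osteocyte lineage cannot be told apart. Stromal markers were detected for 7 to 10 of 11 genes on every array. The summed lineage markers were highest on differentiated adipocytes, differentiated chondrocytes and in vivo osteocytes for their own lists. Adipocyte markers were detected for 9 of 11 genes on differentiated adipocytes, with a summed linear intensity of 98900 against 1650 to 25800 elsewhere, and chondrocyte markers for 5 of 10 on differentiated chondrocytes, with 20000 against 331 to 2960. Col2a1, the main cartilage collagen, did not run with its label. Its log2 level was 8.28 in differentiated and 10.38 in reprogrammed chondrocytes, against 7.82 and 9.48 in MSC. Acan, the cartilage proteoglycan, was not detected on any array. In the fits over all lineages, the 3 tested chondrocyte markers were lower in differentiated cells than in MSC. The 2 tested between reprogrammed and differentiated cells were higher in the reprogrammed cells, and none was called. Osteoblast and osteocyte markers summed to 25800 on in vivo osteocytes. On differentiated osteocytes 6 of 11 were detected with a median log2 level of 5.87, against 5 with 5.11 and 5.15 on the MSC arrays, while their sum, 1730, was below both MSC arrays at 2890 and 1970. Macrophage markers were detected for 15 of 15 genes on differentiated chondrocytes and on in vivo osteocytes, with sums of 174000 and 181000 against 665 to 3270 on the other 8 arrays, where 3 to 5 of 15 were detected.

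Across the 9 genes, 4 were detected on all 10 arrays, namely Dnmt1, Dnmt3b, Uhrf1 and Uhrf2. Dnmt3l was detected on 3 arrays, Tet1 on 2 and Mbd2 on 1. Dnmt3a and Tet3, with 3 probes each, were not detected on any array. Each gene was read from its brightest probe, on a log2 scale after background correction and quantile normalisation. On that scale the undetected probes of these genes had log2 levels from 4.28 to 5.33. Because probes differ in response, levels are compared between arrays and not between genes.

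**Figure D1:**
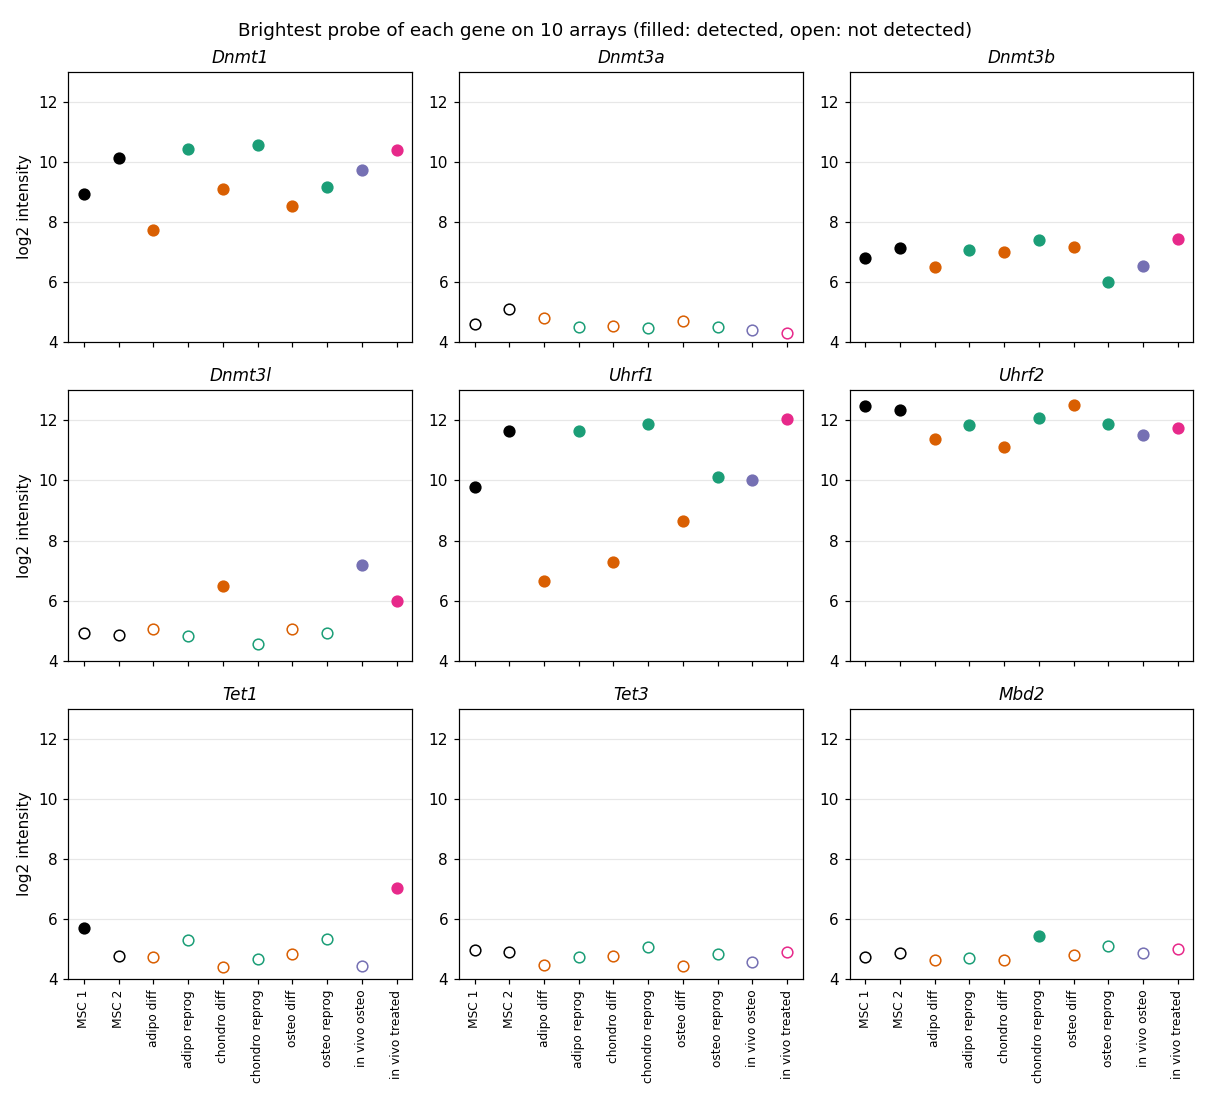
Normalised log2 intensity (y axis, 4 to 13) of the brightest probe of each of the 9 genes on the 10 arrays (x axis; black MSC, orange differentiated, green reprogrammed, violet in vivo osteocytes, pink treated in vivo osteocytes), with filled points detected and open points not detected. Uhrf1 runs from 6.64 to 12.05 and Dnmt1 from 7.75 to 10.55, each lowest in differentiated adipocytes, while Dnmt3a and Tet3 have open points on all arrays.

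Uhrf1 varied most. The gene lies on chr17:56303337-56323486 (GRCm38.p6), and its brightest probe, ILMN_2517041, was detected on all 10 arrays. Its log2 level was 9.77 and 11.64 on MSC 1 and MSC 2. It was 6.64, 7.27 and 8.66 in differentiated adipocytes, chondrocytes and osteocytes, and 11.64, 11.87 and 10.11 in the reprogrammed cells of the same lineages. It was 10.02 in in vivo osteocytes and 12.05 in treated ones. The 3 differentiated arrays lay below all 7 others, and the reprogrammed arrays did not overlap with them. The share of all probes that separate the arrays in this way is not given here. In the order of levels, no neighbours were farther apart than the 2 MSC arrays, which differed by 1.87.

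Reprogrammed cells had a Uhrf1 level 3.68 ± 0.71 (SE) log2 units above differentiated cells, a 12.9-fold difference with a 95% interval of 1.96 to 5.41 log2 units (n = 3 pairs, lineage as the block). With limma over all 17728 probes tested, the unadjusted p was 0.0018 and the Benjamini-Hochberg adjusted p 0.081, so the difference, with the reprogrammed array higher in 3 of 3 pairs, did not pass the threshold of 0.05. In that test 49 probes passed (0.276% of those tested), 24 higher (0.135%) and 25 lower (0.141%), and none of the 4 tested genes was among them. The unadjusted p was under 0.05 for 19.7% of probes, and for Uhrf1 and Dnmt1 of the 4. Uhrf1 passed under 2 of 11 alternative settings: the adjusted p was 0.0243 without the osteocyte pair, where the difference was 4.80, and 0.0435 without the lineage block. The adjusted p lay between 0.0243 and 0.281 over all 11.

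Within lineages, Uhrf1 was 5.00 log2 units higher in reprogrammed than in differentiated adipocytes (32.0-fold), 4.60 higher in chondrocytes (24.3-fold) and 1.46 higher in osteocytes (2.75-fold). The first 2 differences exceeded the 1.87 between the MSC arrays, and the osteocyte difference did not. Treated in vivo osteocytes stood 2.04 above untreated ones (4.11-fold), just past the MSC gap. Probes at least 2-fold higher made up 19.1%, 21.1% and 12.0% of those detected in the adipocyte, chondrocyte and osteocyte pairs, and 17.6% in the in vivo pair. With 1 array a side these pairs have no replicate check. Macrophage markers summed to 174000 on differentiated and 744 on reprogrammed chondrocytes, and to 181000 on untreated and 3270 on treated in vivo osteocytes. The chondrocyte and in vivo pairs thus also differ in macrophage markers, for Uhrf1 and for every gene below. The part of this in their differences was not tested. The second Uhrf1 probe, ILMN_2497581, was not detected on any array, with log2 levels of 4.41 to 5.32.

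Differentiated cells differed from MSC in Uhrf1 by -3.18 ± 0.80 (SE) log2 units, with an unadjusted p of 0.0035 and an adjusted p of 0.26 by limma over 18131 probes. Only 3 probes passed in that comparison (0.0165%), all higher in differentiated cells, and 8.67% had an unadjusted p under 0.05. Reprogrammed cells differed from MSC by 0.50 ± 0.80 (SE, 95% interval -1.31 to 2.32), with an adjusted p of 1 by limma, and no probe passed (0% of 18131, 72 with an unadjusted p under 0.05). Without MSC 1 the value was -0.43.

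Dnmt1, the maintenance methyltransferase, lies on chr9:20907206-20959888. Its single probe, ILMN_2720451, gave log2 levels of 8.93 and 10.14 in MSC. The levels were 7.75, 9.09 and 8.53 in differentiated adipocytes, chondrocytes and osteocytes, and 10.43, 10.55 and 9.18 in their reprogrammed counterparts. In vivo osteocytes had 9.72 and treated ones 10.39. The 3 reprogrammed levels lay above the 3 differentiated ones, but narrowly: the closest 2 were reprogrammed osteocytes at 9.18 and differentiated chondrocytes at 9.09. How many of all probes separate the groups likewise is not given here. MSC 1 and the differentiated chondrocytes did not differ beyond the MSC spread.

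Dnmt1 was 1.60 ± 0.47 (SE) log2 units higher in reprogrammed than in differentiated cells (3.03-fold, 95% interval 0.46 to 2.74), with an unadjusted p of 0.013 and an adjusted p of 0.16 by limma, and with the reprogrammed array higher in 3 of 3 pairs. The adjusted p ranged from 0.134 to 0.404 over 11 alternatives. By lineage the reprogrammed cells were higher by 2.69 in adipocytes, 1.46 in chondrocytes and 0.66 in osteocytes, and treated in vivo osteocytes by 0.67. The gap between the MSC arrays was 1.21, so the osteocyte and in vivo differences were within it. Against MSC, the fit gave -1.08 ± 0.59 (SE) for differentiated cells (adjusted p 0.66, limma) and 0.52 ± 0.59 for reprogrammed cells (adjusted p 1, limma).

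Uhrf1 and Dnmt1 followed each other over the 10 arrays, with Pearson's r of 0.91, given as a description since the arrays share MSC as a source and stand in pairs. The genes most like Dnmt1 among 15987 probes were Fen1, the flap endonuclease of lagging-strand synthesis (r = 0.981), Selenoh (0.979) and Fam171a1 (0.979). Those most like Uhrf1 were Mcm5, a subunit of the replicative helicase (0.990), Fignl1 (0.987) and Spdl1 (0.987). The mean log2 level of 30 proliferation genes correlated with Uhrf1 at 0.984 and with Dnmt1 at 0.885. This mean was 8.14 and 9.60 in MSC, 6.37, 6.57 and 7.44 in differentiated adipocytes, chondrocytes and osteocytes, and 9.68, 9.76 and 8.70 in the reprogrammed cells. It was 7.97 in in vivo osteocytes and 9.41 in treated ones. The part of proliferation in either difference was not tested. In bulk RNA, fewer cells of a type and less RNA per cell cannot be told apart.

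**Figure D2:**
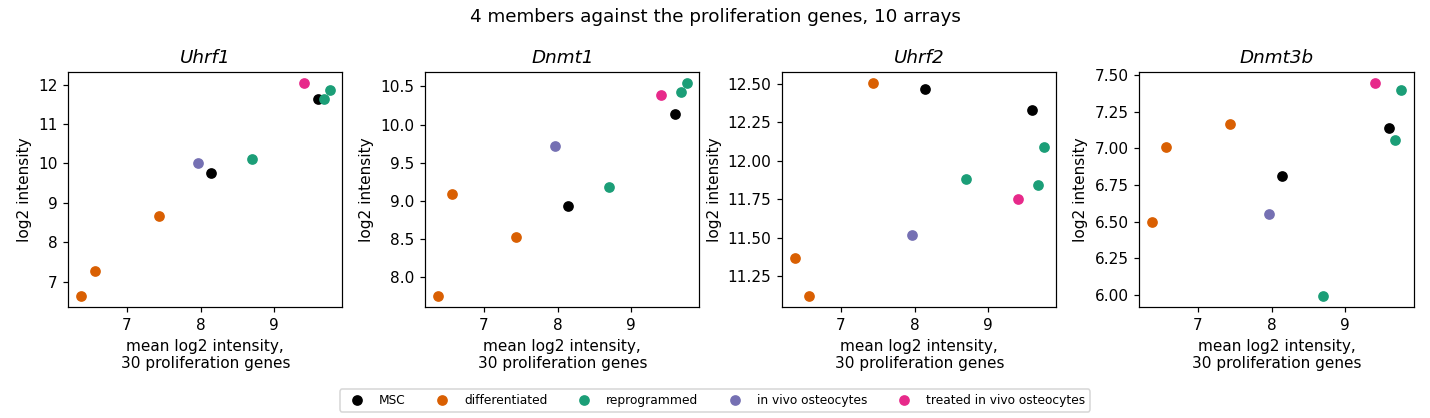
Log2 intensity of Uhrf1, Dnmt1, Uhrf2 and Dnmt3b (y axes, each with its own scale) against the mean log2 intensity of 30 proliferation genes (x axis), 1 point per array, coloured by group. The points of Uhrf1 lie near a line (r = 0.984) and those of Dnmt1 less so (0.885), while Uhrf2 (0.458) and Dnmt3b (0.385) scatter.

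Uhrf2, on chr19:30030430-30093726, was bright on every array, with a range of 1.4 log2 units on its brightest probe. Its brightest probe, ILMN_1224117, had log2 levels of 12.47 and 12.33 in MSC. Levels were 11.37, 11.12 and 12.51 in differentiated adipocytes, chondrocytes and osteocytes, and 11.84, 12.09 and 11.88 in the reprogrammed cells. In vivo osteocytes had 11.52 and treated ones 11.75. On this probe both MSC arrays lay above the 3 reprogrammed and the 2 in vivo arrays. The share of all probes with such a separation is not given here. The differentiated arrays overlapped with the other groups: differentiated osteocytes were the highest of all while the other 2 differentiated arrays were the lowest. On the other 3 detected probes reprogrammed osteocytes lay above MSC 2, at 8.96, 8.17 and 8.35 against 8.91, 8.16 and 7.97.

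No difference in Uhrf2 passed the test. It was 0.27 ± 0.43 (SE) for reprogrammed minus differentiated cells (95% interval -0.76 to 1.30, adjusted p 0.76, limma) and -0.73 ± 0.44 for differentiated cells minus MSC (adjusted p 0.69, limma). Reprogrammed cells minus MSC gave -0.46 ± 0.44 (adjusted p 1, limma). By lineage it was higher by 0.47 in reprogrammed adipocytes and by 0.98 in reprogrammed chondrocytes, and the osteocyte pair differed by -0.63. The MSC arrays differed by -0.14.

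The other Uhrf2 probes did not all follow the brightest one. Of 5 probes, 4 were detected on all arrays and ILMN_1235803 on none. ILMN_1219262 showed the widest range, from 6.45 in differentiated chondrocytes to 9.02 in MSC 1. In the chondrocyte pair it was 2.22 log2 units higher in the reprogrammed cells, against 0.98, 0.67 and 0.29 for the other 3 detected probes. In the osteocyte pair the 4 probes gave -0.63, 0.46, -0.20 and 0.07, so they did not share a direction. ILMN_1219262 differed by -1.41 ± 0.61 (SE) log2 units between differentiated cells and MSC, with an unadjusted p of 0.047 and an adjusted p of 0.58 by limma. All 4 detected probes were below the MSC mean in differentiated adipocytes, differentiated chondrocytes, both in vivo arrays, reprogrammed adipocytes and reprogrammed chondrocytes. The genes most like the brightest probe over 10 arrays were Pml, which organises nuclear bodies (r = 0.950), Zc3h12b (0.948) and Midn (0.938).

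**Figure D3:**
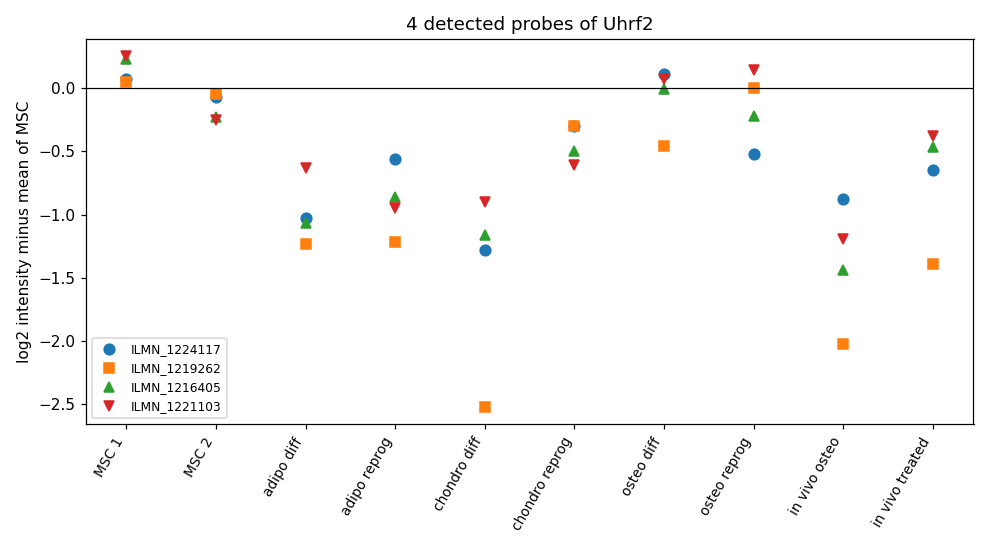
Log2 intensity minus the mean of the 2 MSC arrays (y axis) for the 4 detected Uhrf2 probes (symbols) on the 10 arrays (x axis). The probes lie close together on the MSC arrays and farthest apart in differentiated chondrocytes, where ILMN_1219262 is lowest at -2.52 and the others lie between -1.28 and -0.90.

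Among the de novo enzymes, Dnmt3b was low and Dnmt3a was not detected. Dnmt3b, on chr2:153649411-153687730, had 1 detected probe of 2, ILMN_1252310, with log2 levels of 6.81 and 7.14 in MSC. Differentiated adipocytes, chondrocytes and osteocytes had 6.50, 7.01 and 7.17, and the reprogrammed cells 7.06, 7.40 and 5.99. In vivo osteocytes had 6.55 and treated ones 7.45. The groups overlapped throughout, and the whole range was 1.47 log2 units.

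Dnmt3b differed by -0.07 ± 0.46 (SE) between reprogrammed and differentiated cells (95% interval -1.18 to 1.03, adjusted p 0.95, limma), and by -0.08 ± 0.46 and -0.16 ± 0.46 between differentiated or reprogrammed cells and MSC (adjusted p 0.97 and 1, limma). The interval still allows a 2-fold change in either direction. The reprogrammed cells were higher by 0.56 in adipocytes and 0.40 in chondrocytes, and the osteocyte pair differed by -1.18. Probes at least 2-fold lower made up 10.8% of that pair. The deposited intensities behind the osteocyte pair were near equal, 150 in differentiated and 146 in reprogrammed cells, and without background correction the difference was -0.51. Treated in vivo osteocytes were 0.91 above untreated ones, and the MSC arrays differed by 0.33. The genes most like Dnmt3b were Zfp64 (r = 0.902), Kdm8 (0.898) and Mpp6 (0.889) over 10 arrays.

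The Dnmt3a probes (gene on chr12:3801559-3914443) had log2 levels from 4.28 to 5.12, and their lowest detection p-value was 0.0534. That a probe was not detected does not show that the transcript was absent.

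Dnmt3l, the cofactor of the de novo enzymes, was detected on 3 arrays only, by both of its probes, which correlated at r = 0.990 over 10 arrays. The gene lies on chr10:78042287-78063622. The brighter probe, ILMN_3112268, had log2 levels of 6.47 in differentiated chondrocytes, 7.18 in in vivo osteocytes and 5.99 in treated in vivo osteocytes. The other probe, ILMN_1250149, gave 6.35, 7.36 and 6.07 on the same arrays. On the remaining 7 arrays the brighter probe lay between 4.56 and 5.04 and was not detected, and the MSC arrays stood at 4.91 and 4.85.

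For a gene below detection on 1 side, the fold is a lower bound: an undetected array entered with the lowest log2 value that any detected probe reached on it, or with the measured value of the probe if higher. On this measure, against the mean of the 2 MSC arrays, Dnmt3l was at least 1.92-fold higher in differentiated chondrocytes. It was at least 3.13-fold higher in in vivo osteocytes and at least 1.37-fold in treated in vivo osteocytes. Differentiated chondrocytes were at least 2.16-fold higher than reprogrammed chondrocytes, and untreated in vivo osteocytes 2.28-fold higher than treated ones, where both arrays were detected. Probes at least 2-fold above both MSC arrays made up 14.0%, 12.4% and 9.21% of those detected on the 3 arrays. These differences rest on 1 array a side and have no test.

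The 2 arrays with the highest Dnmt3l are those on which all 15 macrophage markers were detected, with mean log2 levels of 12.23 and 12.38. On treated in vivo osteocytes, which had the third Dnmt3l level, the macrophage mean was 5.81 with 4 of 15 detected, and on the other 7 arrays it was 5.16 to 5.47. Dnmt3l and the macrophage mean correlated at r = 0.908 over 10 arrays, of which those 2 hold the high macrophage values. The part of macrophage RNA in the Dnmt3l signal was not tested.

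**Figure D4:**
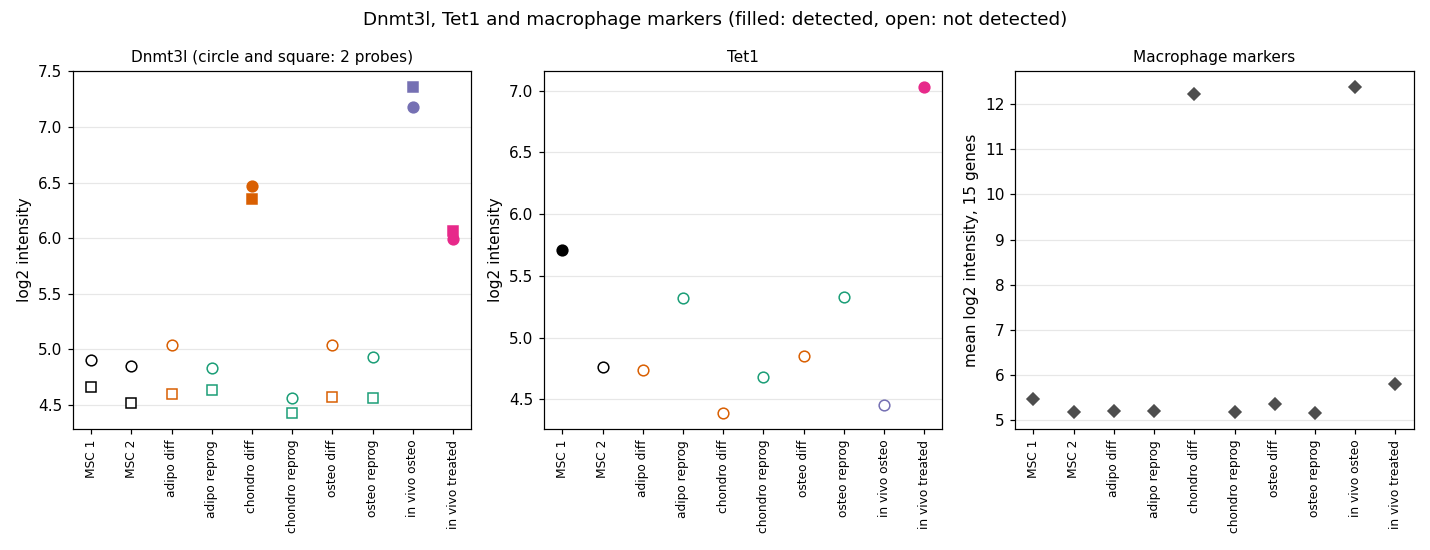
Log2 intensity (y axes) of the 2 Dnmt3l probes, of the Tet1 probe, and the mean log2 intensity of 15 macrophage markers on the 10 arrays (x axes), with filled circles and squares for detected and open ones for undetected probes, and diamonds for the marker mean. Dnmt3l is detected on 3 arrays with both probes, Tet1 is highest on treated in vivo osteocytes at 7.03, and the macrophage mean is above 12 on 2 arrays.

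Of the erasers, Tet1 was detected on 2 arrays and Tet3 on none. Tet1, on chr10:62804570-62887469, has 1 probe, ILMN_2598232, with a log2 level of 7.03 in treated in vivo osteocytes and 5.71 in MSC 1. MSC 2 had 4.76 and untreated in vivo osteocytes 4.45, both not detected. The reprogrammed adipocytes, chondrocytes and osteocytes had 5.32, 4.68 and 5.33, and their differentiated counterparts 4.74, 4.39 and 4.85, none of them detected. Treated in vivo osteocytes thus stood apart from the other 9 arrays. Their Tet1 level was 1.32 log2 units above MSC 1, where the probe was detected. It was at least 2.70-fold above the mean of the 2 MSC arrays, with MSC 2 entered at the bound described above. Against untreated in vivo osteocytes it was at least 3.06-fold higher, on 1 array a side. Because the 2 MSC arrays fell on either side of detection, no fold is given between MSC and the other populations.

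The 3 Tet3 probes (gene on chr6:83362373-83457208) had log2 levels of 4.32 to 5.08, with a lowest detection p-value of 0.0652. Mbd2, the reader on chromosome 18 (70568225 to 70629134), had 2 probes, and 1 of them was detected on 1 array, reprogrammed chondrocytes, with a level of 5.45 and a detection p-value of 0.00534. Its other levels lay from 4.63 to 5.12 on the 9 remaining arrays, and the second probe ran from 4.33 to 5.06.

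Counted over single arrays against both MSC arrays, 9 of 72 combinations of a gene and an array were at least 2-fold apart, 4 higher and 5 lower. In 37 of the 72 the gene was detected on the array or on both MSC arrays. The shares below count only probes detected in this way. The lower ones were Uhrf1 on all 3 differentiated arrays, Dnmt1 in differentiated adipocytes and Uhrf2 in differentiated chondrocytes. The shares of all detected probes that were lower were 10.5% in differentiated adipocytes, 12.5% in chondrocytes and 3.48% in osteocytes, and the shares that were higher 11%, 14.0% and 4.70%. The higher ones, on the measured values rather than the bounds above, were Dnmt3l on its 3 arrays and Tet1 in treated in vivo osteocytes. In in vivo osteocytes 12.4% of probes were higher and 10.8% lower, and in treated ones 9.21% were higher and 8.23% lower. None of the 9 genes was 2-fold from both MSC arrays in any reprogrammed array, where 0.210%, 0.412% and 1.67% of probes were higher in adipocytes, chondrocytes and osteocytes and 0.927%, 0.618% and 0.578% lower.

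In the 4 pairs, 10 of 36 combinations were at least 2-fold apart. In 20 of the 36 the gene was detected on either array of the pair, and the shares below count only probes detected in this way. The 7 higher ones in reprogrammed or treated cells were Uhrf1 in all 4 pairs, Dnmt1 in adipocytes and chondrocytes, and Tet1 in the in vivo pair. Of all detected probes, 19.1% were higher in adipocytes, 21.1% in chondrocytes, 12.0% in osteocytes and 17.6% in the in vivo pair. The 3 lower ones were Dnmt3l in chondrocytes and in the in vivo pair and Dnmt3b in osteocytes, where 19%, 16.1% and 10.8% of all detected probes were lower.

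**Figure D5:**
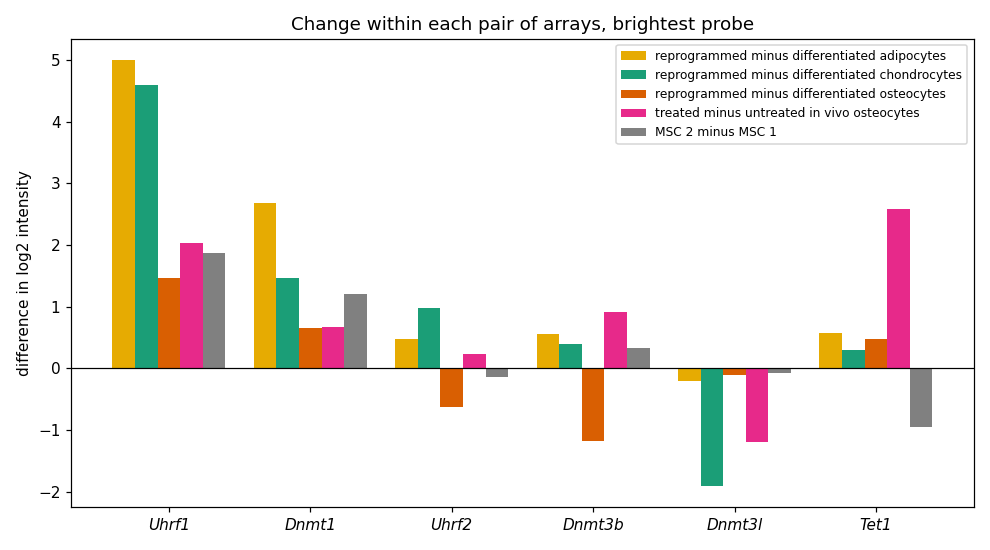
Difference in normalised log2 intensity (y axis) for 6 genes (x axis) within the 3 reprogrammed minus differentiated pairs, the treated minus untreated in vivo pair and, in grey, MSC 2 minus MSC 1; bars are differences of 1 array from 1 array, without error. Uhrf1 is positive in all 4 pairs (5.00, 4.60, 1.46 and 2.04), Dnmt3b and Uhrf2 are negative in the osteocyte pair alone (-1.18 and -0.63), and Tet1 differs most in the in vivo pair (2.58, with the untreated side not detected). The Tet1 bars of the 3 reprogrammed minus differentiated pairs compare undetected values. So do the Dnmt3l bars of the adipocyte, osteocyte and MSC pairs. Reprogrammed chondrocytes for Dnmt3l and MSC 2 for Tet1 were also not detected.

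Other genes around methylation were read from lists in the same fits. Beside a median difference of 0.10 log2 units over all probes between reprogrammed and differentiated cells, the 13 tested genes of maintenance, de novo partners and related factors had a median of 0.35, with 9 higher, 4 lower and none past the adjusted threshold. Lig1, the ligase of replication, gave 2.31 ± 0.46 (SE, adjusted p 0.083, limma), Pcna, the sliding clamp of replication, 1.49 ± 0.47 (adjusted p 0.18, limma), and Cdca7, a partner of the remodeller Hells, 2.15 ± 0.90 (adjusted p 0.26, limma). Smchd1, a factor of X inactivation and imprinting, gave 0.96 ± 0.36 (adjusted p 0.22, limma). Lig1 levels were 6.66, 6.95 and 7.46 in differentiated adipocytes, chondrocytes and osteocytes and 9.53, 9.80 and 8.66 in the reprogrammed cells. These groups did not overlap, and the share of all probes with such a separation is not given here.

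The 12 tested readers and their deacetylase partners had a median of 0.42, with 10 higher, 2 lower and none called. Mbd3, a subunit of the NuRD complex, gave 1.22 ± 0.38 (adjusted p 0.17, limma) and Rbbp7, a histone-binding subunit shared by deacetylase complexes, 1.25 ± 0.47 (adjusted p 0.23, limma). Of 14 erasers and repair genes 10 were higher and 4 lower, with a median of 0.26 and none called. Tdg, the glycosylase that removes the oxidised bases made by Tet enzymes, gave 1.80 ± 0.46 (adjusted p 0.13, limma). Its levels were 7.57, 5.69 and 6.64 in the differentiated and 8.65, 8.57 and 8.06 in the reprogrammed adipocytes, chondrocytes and osteocytes. The base excision glycosylases Neil3 and Neil1 stood on opposite sides. Neil3 was not detected on the differentiated arrays and was at least 1.53-fold higher on the reprogrammed ones. It had entered the fit only through the reprogrammed arrays, so its test value is not given. Neil1 gave -1.04 ± 0.35 (adjusted p 0.19, limma).

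The methyl donor cycle had a median of 0.16 over 8 tested genes, 5 higher and 3 lower, with Shmt1, a serine hydroxymethyltransferase of folate metabolism, at 2.29 ± 0.80 (adjusted p 0.20, limma). The next list holds genes that make or use 2-oxoglutarate, the cosubstrate of Tet enzymes, and also the succinate and fumarate enzymes Sdhb and Fh1. All 9 tested genes of it had lower values, with a median of -0.35 and none called. Of all 17728 probes tested, 7896 had lower values. Idh1, the cytosolic isocitrate dehydrogenase, gave -2.04 ± 0.50 (adjusted p 0.12, limma), with 12.56, 11.33 and 11.75 in differentiated and 9.26, 9.57 and 10.68 in reprogrammed adipocytes, chondrocytes and osteocytes. Its highest level fell on the array with the most adipocyte marker signal, and the part of adipocyte content was not tested.

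The nucleoside list holds genes that transport, phosphorylate or reduce nucleosides or nucleotides, and also the deaminases Cda and Dctd and the hydrolase Samhd1. Some of these enzymes also act on nucleoside inhibitors of DNA methyltransferases, and not all in the same direction. The list had a median of 1.12 over 12 tested genes, 10 higher and 2 lower, with none called. Rrm1, the large subunit of ribonucleotide reductase, gave 1.99 ± 0.44 (adjusted p 0.10, limma) and Dck, the deoxycytidine kinase, 1.48 ± 0.40 (adjusted p 0.14, limma). The proliferation list had a median of 3.16 over 27 tested genes, 26 of them higher. It shares Rrm2 with the nucleoside list and Pcna with the list of maintenance and partner genes, so these lists are not separate observations. Of the 27, 2 were not detected on any differentiated array, and with these at their lower bounds the median stayed at 3.16. One of them, Kif11, a mitotic spindle motor, was the only gene of that list under the threshold (adjusted p 0.047, limma). It had entered the fit through the reprogrammed arrays and was at least 9.92-fold higher there, with mean log2 levels of 8.89 and 4.77. Of 24 germline genes known to be silenced by promoter methylation, 0 to 3 were detected per array, with 0 and 1 on the MSC arrays, 2 on each differentiated array and 0, 3 and 1 on reprogrammed adipocytes, chondrocytes and osteocytes.

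Against MSC no gene of the methylation lists passed the test in either class (limma). In differentiated minus MSC, where the median of all probes was -0.09, the list medians were -0.36 for maintenance and partner genes (4 higher, 9 lower), -0.34 for readers (2 higher, 10 lower), 0.03 for erasers and repair (7 higher, 7 lower) and 0.47 for the genes of 2-oxoglutarate (8 higher, 1 lower). In reprogrammed minus MSC, where the median of all probes was 0.01, they were 0.16, 0.06, 0.24 and -0.10. Both comparisons share the 2 MSC arrays, and the first shares the differentiated arrays with the comparison of reprogrammed cells.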

How the data were processed

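Per the file headers, the deposited scanner table gives an intensity and its detection p-value for 45281 probes on each of 10 arrays. The scanner settings and software are not given in the sources read here. The deposited value table of the series is on a log2 scale for the osteocyte pair and linear intensity, which the authors' table does not state, for the other 8 columns, where its probe IDs do not follow the scanner table. All 45281 of its lines were matched by rank (tolerance 3), 1 carrying the same ID, and it was used as an alternative only.

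Intensities were corrected with neqc of limma 3.58.1 in R 4.3.3 (normexp from detection p-values, offset 16, quantile normalisation, log2). Probes detected (p under 0.01) on at least 2 arrays of a fit were tested with lmFit and eBayes, with Benjamini-Hochberg adjustment and a threshold of 0.05: reprogrammed minus differentiated on 6 arrays with lineage as a block (2 residual degrees of freedom), and both against MSC on 8 arrays (5 residual degrees of freedom). Single arrays and pairs were described at 2-fold or more, with detection on the higher side. Symbols came from the array annotation (34885 probes with 1 symbol, 18 with several, 10378 with none). Named genes are all 9 genes with every probe, up to 4 list genes by smallest p, and the 3 most correlated genes of each gene detected on at least 5 arrays. The genes and lists were chosen with earlier results of these data known. The number of arrays limits the precision. The fits were tested on simulated data. Probe positions and sequences were not used here.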

Additional observations from a re-analysis of the deposited data

Results flagged for a closer look

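On the brightest probes of Dnmt3b and Uhrf2, the osteocyte pair of reprogrammed and differentiated cells differed in the opposite direction from the other lineages, and each pair by more than the gap between the 2 MSC arrays. Dnmt3b differed by 0.56 log2 units in adipocytes, 0.40 in chondrocytes and -1.18 in osteocytes. Uhrf2 differed by 0.47 in adipocytes, 0.98 in chondrocytes and -0.63 in osteocytes. Its other 3 detected probes did not all share these directions: they gave 0.02, 0.21 and -0.32 in adipocytes and 0.46, -0.20 and 0.07 in osteocytes. With 1 array a side the difference between lineages was not tested, and the osteocyte arrays also stand on another intensity scale.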

How the results depend on the processing

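Of 140 values of the 4 tested genes under alternatives, 129 kept direction and side of the threshold, 2 passed it (Uhrf1, given above) and 9 changed sign, each in a comparison where the gene passed neither the main test nor any alternative; the cause was not tested. With the in vivo pair added, Dnmt3b in reprogrammed minus differentiated cells was 0.17. Leaving out 1 lineage or MSC array in turn, Dnmt3b ranged from -0.39 (without the adipocyte pair) to 0.48 (without the osteocyte pair) in that comparison, and Uhrf2 from -0.081 (without the chondrocyte pair) to 0.72 (without the osteocyte pair). Dnmt3b ranged from -0.25 to 0.11 in differentiated minus MSC and from -0.45 to 0.26 in reprogrammed minus MSC. In reprogrammed minus MSC, Dnmt1 ranged from -0.088 without MSC 1 to 1.13 without MSC 2, and Uhrf1 from -0.43 to 1.44 without the same arrays. The count of 49 probes in reprogrammed minus differentiated became 0 with uncorrected background, 0 when all probes were tested and 0 on adding the in vivo arrays, 10 with offset 50, 26 with the deposited value table, 11 with the mean over probes of a gene, 344 without the lineage block, and 55 to 330 leaving out 1 lineage. The count of 3 in differentiated minus MSC became 1 without the detection filter, 0 with only the 2 classes in the fit, and 0 to 11 leaving out 1 lineage or MSC array. Without background correction the 2-fold combinations against MSC fell from 9 to 3 and those in pairs from 10 to 6. Apart from the lineage block, no pairing by replicate number was run, since the labels give no such number shared between groups. The 2 MSC arrays limit every comparison with MSC, and genes near background, such as Dnmt3l and Tet1, have only lower bounds against arrays where they were not detected.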
